A study of Mus musculus with 8 samples.

Results

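The genes of the Indian hedgehog and parathyroid hormone-related protein (PTHrP) loop were followed through single-cell RNA-seq of bone cells, depleted of haematopoietic cells, from unfractured and fractured mouse bone. The 9 members were chosen by name, and all 9 were found among the 26075 genes kept. They comprise the ligands Ihh and Pthlh, the receptors Ptch1, Smo and Pth1r, the transcription factors Gli1, Gli2 and Gli3, and the inhibitor Hhip. Both groups were 12-week-old wild-type C57BL/6 females. The Control femurs were unfractured. In the Fracture group the left leg had been broken by three-point bending at 10 weeks, stabilised with an intramedullary nail, and the femur was collected on day 14 with the nail removed. Blood cells had been depleted with beads against lineage markers, CD45 and CD117. A blood class (granulocyte-, erythroid- and megakaryocyte-like cells) still made up 28.3% and 36.9% of the kept cells in the preparations of Control and 2.69% and 3.08% in those of Fracture. The part of the depletion, and of which cells the digestion released, in the makeup of the samples was not tested. Each group held 2 cell preparations of 2 libraries each. Nothing in the labels says that the preparations came from separate animals, so p-values measure the spread between these preparations.

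In growth cartilage, Indian hedgehog is made by chondrocytes that leave the cell cycle and enlarge, and binds the receptor Ptch1 on neighbouring cells. This frees the transducer Smo and turns Gli factors to activation, and Gli1, Ptch1 and Hhip are themselves targets of the signal, the last of them a membrane protein that binds and sequesters the ligand. PTHrP, the product of Pthlh, is made by resting and periarticular cells, acts on the G protein-coupled receptor Pth1r, and delays hypertrophy, the stage marked by type X collagen (Col10a1). A fracture callus passes through cartilage of the same kind before bone forms.

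After filters, 45328 of 48903 barcodes were kept, 20676 of Control and 24652 of Fracture, with library totals of 56543151 to 89126291 UMIs and a median of 7711 and 11351 UMIs per cell. Libraries shared at most 46 barcodes. The 2 groups stood apart before any comparison of genes. Control tables reached down to barcodes of 1 to 3 UMIs, while the smallest Fracture barcode held 1929 UMIs. Control preparation 1 held no UMI for 188 genes with at least 1000 UMIs in each other preparation, all with symbols that begin with U, and every such symbol was left out (no member is among them). Cartilage RNA was found in all Fracture cell classes, as described below for Ihh. Chondrocyte-like cells, named from Acan, Col2a1, Sox9 and other cartilage markers, numbered 2061 and 672 in preparations 1 and 2 of Control and 6799 and 7123 in those of Fracture, and values below follow the same order. They came from 2 clusters, led by Col10a1 and Ihh (12983 cells) and by Serpina1a (3672 cells). The first held 1129 and 376 of the Control cells and 5609 and 5869 of the Fracture cells. Without integration a cluster led by Aldh1a3, Frzb and Col10a1 held 245 and 85 of the Control and 5644 and 5928 of the Fracture chondrocyte-like cells, and one led by Serpina1a 1755 and 568 and 1262 and 1324, so that most of the class lay in different clusters in the groups. Their summed cartilage markers stood at 89737 and 81512 CPM (UMIs per 1000000 UMIs of the class in a preparation) in Control and 94297 and 93751 CPM in Fracture. Summed osteoblast markers stood at 7097 and 8742 CPM and 13145 and 14026 CPM, with 3 of 8 genes higher and 4 lower without overlap. Summed erythroid markers rose from 155 and 435 CPM to 1138 and 1202 CPM. Summed granulocyte markers fell from 469 and 225 CPM to 33.1 and 26.3 CPM, with 3 of 10 genes higher and 7 lower without overlap. The part of these shifts in the member values was not tested. Here and below, the share of all genes without overlap was not counted, so such marker counts are a description.

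The member with the most UMIs was Pth1r, with 728297 UMIs over 31149 cells, and the one with the fewest was Gli2, with 2745 UMIs over 2389 cells. Ihh gave 52364 UMIs in 8321 cells and Pthlh 3418 in 1131 cells. The tables count molecules per gene without gene length, so levels are compared here between cells and not between genes. In GENCODE M21 (GRCm38) the ligand genes lie on chromosome 1 at 74945315 to 74951672 (Ihh, minus strand) and on chromosome 6 at 147252101 to 147264183 (Pthlh, minus strand). Pth1r lies on chromosome 9 at 110722085 to 110747145 (minus strand), Ptch1 on chromosome 13 at 63508328 to 63573598 (minus strand) and Smo on chromosome 6 at 29735503 to 29761365 (plus strand). Gli1 lies on chromosome 10 at 127329882 to 127341974 (minus strand), Gli2 on chromosome 1 at 118834132 to 119053619 (minus strand) and Gli3 on chromosome 13 at 15463235 to 15730026 (plus strand). Hhip lies on chromosome 8 at 79965851 to 80058006 (minus strand).

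Ihh, Pthlh and Hhip had the largest differences between the groups in chondrocyte-like cells, and the 250 bases before their start sites are shown for this reason (RefSeq, GRCm38.p6, all on the minus strand and written 5′ to 3′). Promoters of 8 members were found, with 10 starts because Pth1r has 3. Gli1 had no entry. Each was searched on both strands for the Gli motif TGGGTGGTC and for the cAMP response element TGACGTCA, the letters bound by CREB factors that Pth1r signalling can reach through protein kinase A. The regions are chr1:74951673-74951922 for Ihh, chr6:147264014-147264263 for Pthlh and chr8:80058009-80058258 for Hhip. Capitals mark the only match among the members, a cAMP response element that begins 75 bases before the start of Hhip.
Ihh: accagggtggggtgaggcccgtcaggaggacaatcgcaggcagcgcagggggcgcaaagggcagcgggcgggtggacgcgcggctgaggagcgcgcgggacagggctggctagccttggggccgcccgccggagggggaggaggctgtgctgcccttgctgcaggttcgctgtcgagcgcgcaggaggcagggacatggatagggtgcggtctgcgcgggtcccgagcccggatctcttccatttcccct
Pthlh: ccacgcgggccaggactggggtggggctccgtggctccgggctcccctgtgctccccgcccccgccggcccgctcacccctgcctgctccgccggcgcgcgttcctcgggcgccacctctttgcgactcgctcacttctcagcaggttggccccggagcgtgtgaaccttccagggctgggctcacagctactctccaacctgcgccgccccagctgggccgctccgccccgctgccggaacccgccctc
Hhip: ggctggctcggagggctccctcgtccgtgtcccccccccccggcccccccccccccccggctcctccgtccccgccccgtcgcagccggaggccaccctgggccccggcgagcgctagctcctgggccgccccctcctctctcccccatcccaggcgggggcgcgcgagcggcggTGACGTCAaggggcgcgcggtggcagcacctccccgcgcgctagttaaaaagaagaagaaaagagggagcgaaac
The exact Gli motif was in 0 of the 10 member promoters and in 74 of 32851 promoters of all genes (0.225%), and with 1 mismatch allowed in 0 of 10 and in 5.79% of all. The exact cAMP response element was in 1 of 10 against 1.55% of all promoters, and with 1 mismatch in 1 of 10 against 10.6%. These are matches of letters in a short window and not shown binding sites.

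Ihh was a gene of the chondrocyte-like cells in both groups. Its level there was 80.6 and 110.2 CPM in Control and 257 and 243 CPM in Fracture, and the groups did not overlap. Chondrocyte-like cells held 97.6% and 98.2% of all Ihh UMIs in Control and 96.7% and 96.6% in Fracture. In Control they were 16.2% and 8.48% of the cells, and in Fracture 57.3% and 55.7%, and without the blood class 22.6% and 13.4% and 58.9% and 57.5%. In every other Control class Ihh stood at or under 2.60 CPM. Members were not among the genes used for clustering, but clusters and levels come from the same cells, so levels by class are a description.

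Pthlh was highest in fibroblast-like cells, a class led by Prg4, Cilp and Crabp2. There it stood at 183 and 257 CPM in Control and 51.9 and 55.5 CPM in Fracture. In chondrocyte-like cells it stood at 21.1 and 13.3 CPM in Control and 2.20 and 2.13 CPM in Fracture. Fibroblast-like cells, which made up 3.18% and 1.75% of all Control and 5.76% and 6.33% of all Fracture cells, held 43.7% and 61.6% of the Pthlh UMIs in Control and 56.5% and 61.0% in Fracture. Chondrocyte-like cells held 48.6% and 28.4% in Control and 28.0% and 24.8% in Fracture. The class that followed was endothelial-like cells in Fracture (6.42 and 4.90 CPM). Within the chondrocyte-like cells Pthlh was held by few cells. Only 133 and 45 Control cells and 104 and 110 Fracture cells had a UMI, and such a cell held a mean of 4.76 and 3.58 UMIs in Control and 1.86 and 1.94 in Fracture. Ihh had a UMI in 476 and 189 Control cells and in 3433 and 3547 Fracture cells.

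Ptch1, the Hedgehog receptor, was highest in chondrocyte-like cells, at 27.8 and 31.1 CPM in Control and 20.6 and 18.6 CPM in Fracture, followed by BMSC-like cells at 12.5 and 10.6 CPM and 14.0 and 10.4 CPM. BMSC-like cells are the bone marrow stromal class led by Adipoq, Cxcl12 and Lepr. Smo was highest in BMSC-like cells, at 42.8 and 45.1 CPM in Control and 28.6 and 27.7 CPM in Fracture. Its levels in chondrocyte-like cells (32.9 and 36.4 CPM in Control, 20.3 and 19.8 CPM in Fracture) and in fibroblast-like cells (35.7 and 31.0 CPM, 18.5 and 19.97 CPM) overlapped in both groups. Pth1r, the PTHrP receptor, was highest in chondrocyte-like cells, at 2443 and 2609.8 CPM in Control and 2805 and 2649 CPM in Fracture. Osteoblast-like cells followed with 618 and 715 CPM in Control and 819 and 754 CPM in Fracture, and BMSC-like cells came next with 574 and 455 CPM and 623 and 605 CPM. BMSC-, osteoblast- and fibroblast-like cells were also clustered again together. Of the resulting subclasses, the mpMSC-like (metaphyseal, by its marker genes) held more Pth1r than the dpMSC-like (diaphyseal). The levels were 1055 and 1059.8 CPM against 207 and 182 CPM in Control and 906 and 884 CPM against 338 and 324 CPM in Fracture. The mpMSC-like cells were led by Mmp9, and Mmp9 and Mmp13, both on the marker list, are also made by septoclasts, the stromal cells that resorb cartilage, which were not set apart here.

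Gli3 was highest in BMSC-like cells, at 41.6 and 38.8 CPM in Control and 46.3 and 45.0 CPM in Fracture. Of the Gli factors, Gli3 is known mostly as a repressor. Gli1, whose transcription is a common readout of Hedgehog signalling, stood in Control at 12.8 and 11.6 CPM in chondrocyte-like cells and 10.3 and 14.0 CPM in fibroblast-like cells, with overlap. In Fracture the order was another: BMSC-like cells (9.82 and 12.95 CPM) stood above chondrocyte-like cells (9.49 and 8.86 CPM), and fibroblast-like cells held 3.86 and 4.04 CPM. Gli2, the main activator, was highest in fibroblast-like cells in Control (16.7 and 12.5 CPM), while in Fracture BMSC-like cells (12.4 and 10.5 CPM) and osteoblast-like cells (10.2 and 10.6 CPM) overlapped at the top. Hhip in Control was high in fibroblast-like cells (131 and 60.5 CPM) and in chondrocyte-like cells (107 and 84.4 CPM), which overlapped, and at or under 8.16 CPM in the other mesenchymal, endothelial and smooth muscle classes. In Fracture none of the 6 classes had over 8.34 CPM of it.

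**Figure D1:**
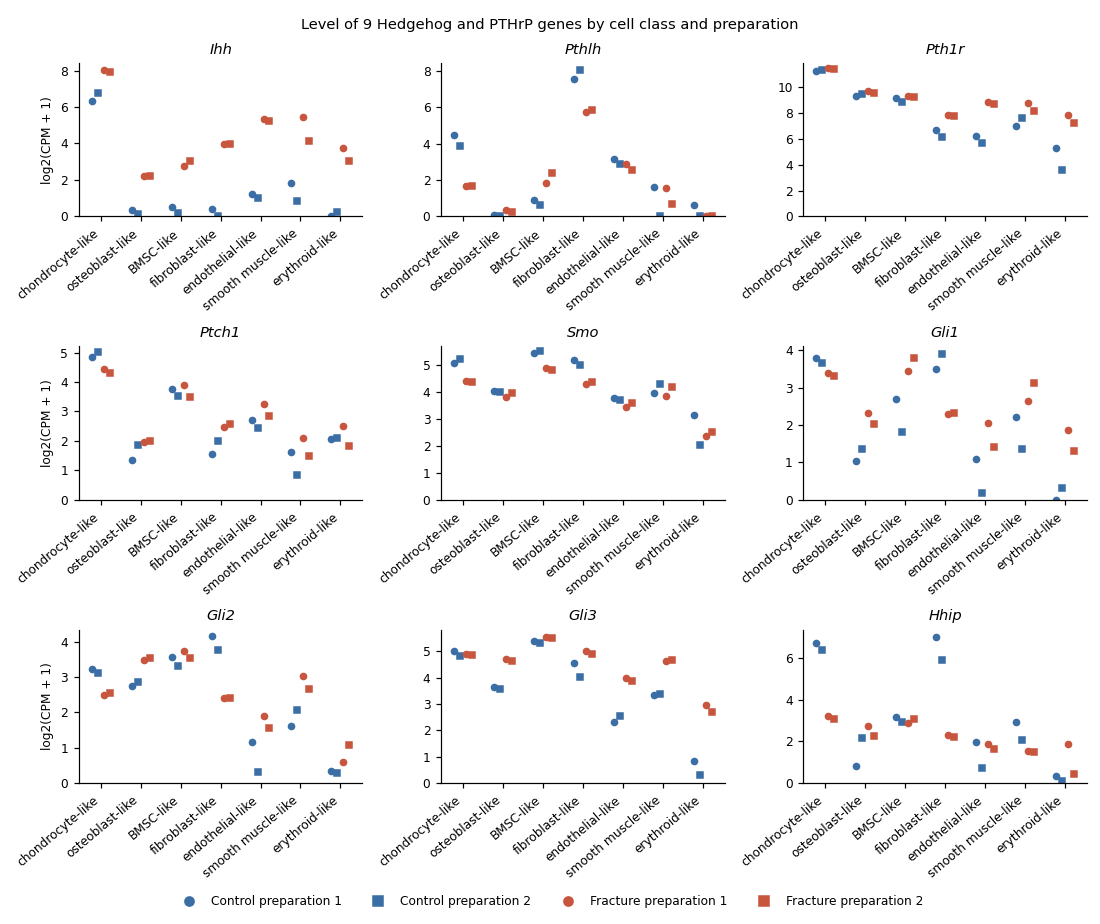
Level of each of the 9 genes, as log2(CPM + 1), in 6 cell classes and in erythroid-like cells, with 1 point for each preparation (2 Control, 2 Fracture). Ihh stands in the chondrocyte-like cells of both groups, Pthlh in fibroblast-like cells, and the Hhip points of Fracture lie far below those of Control in chondrocyte- and fibroblast-like cells.

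Outside the chondrocyte-like cells, Ihh was called higher in Fracture in the other 5 classes tested, and its values there are set beside those of cartilage genes as a measure of background. In endothelial-like cells of Fracture it stood at 39.5 and 36.2 CPM, which is 15.3% and 14.9% of the level in chondrocyte-like cells of the same preparation. Col2a1, the main cartilage collagen, stood at 16.1% and 15.9% of its chondrocyte-like level in those endothelial-like cells, Acan at 16.1% and 14.8%, and Matn3 at 14.7% and 13.9%. Erythroid-like cells, which should lack these genes, held Ihh at 4.89% and 3.03% and Col2a1 at 5.05% and 4.61%. In osteoblast-like cells Ihh stood at 1.39% and 1.53%, and Col2a1, Acan, Col9a1, Matn3 and Col10a1 at 1.47% to 2.45%. In Control osteoblast-like cells Col2a1 stood at 5.51% and 5.28% and Ihh at 0.322% and 0.0905%. In BMSC-like cells Ihh stood at 2.24% and 2.95%, and these 5 genes at 2.60% (Matn3) to 5.64% (Acan). In Fracture fibroblast-like cells Ihh stood at 5.74% and 6.11%, and the 5 genes at 4.03% (Col10a1) to 27.0% (Acan). In Control fibroblast-like cells Acan stood at 16.4% and 15.0% and Ihh at 0.399% and 0%. Col2a1 in osteoblast-like and Acan in fibroblast-like cells are thus no plain measure of background. In Fracture smooth muscle-like cells Ihh stood at 16.7% and 6.85% on 66 and 28 UMIs, Col2a1 at 13% and 8.93%, Acan at 10.5% and 12.1%, Matn3 at 7.36% and 9.06% and Col10a1 at 18.4% and 9.42%, so that Ihh lay within the range of these genes in preparation 1 and below it in preparation 2. The percents in endothelial-like cells were about as high for the cartilage genes as for Ihh, and both were above those of erythroid-like cells. Fitted values of Ihh outside the chondrocyte-like cells rest on few UMIs of Control (1 and 0 in fibroblast-like, 7 and 2 in BMSC-like and 8 and 2 in osteoblast-like cells) and are no bound, and the part of free RNA in its rise there was not tested.

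**Figure D2:**
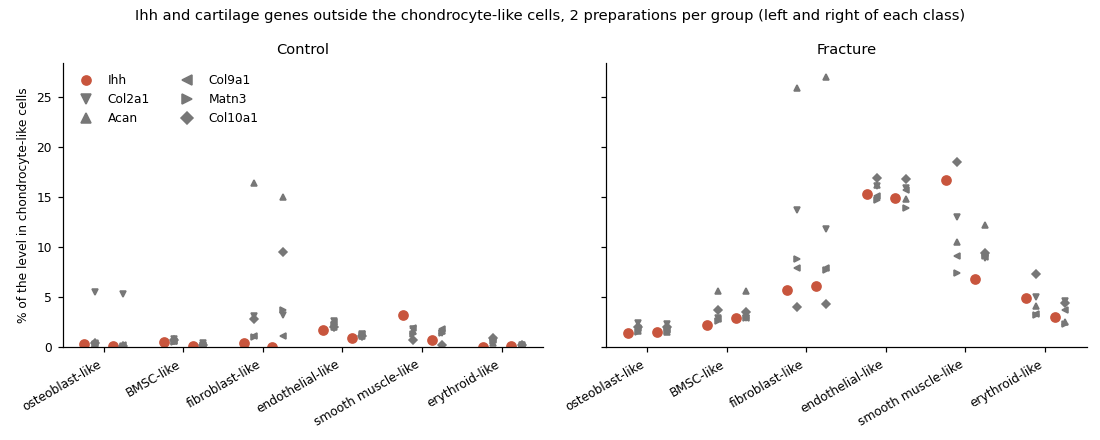
Level of Ihh and of cartilage genes in the other classes as a percent of the level in chondrocyte-like cells of the same preparation, Control and Fracture, with 2 preparations for each class. In Fracture endothelial-like cells Ihh (15.3% and 14.9%) lies among Col2a1, Acan and Matn3 (13.9% to 16.1%), and in Control Ihh stays at or under 3.22% in every class.

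Chondrocyte-like cells were split by their Col10a1 UMIs per 10000 UMIs into low (under 5), mid (5 to under 50) and high (at least 50). Col10a1 chose these cells, so its own level is no result, and the split is a range and not a cell type. High cells were 13% and 15.5% of the chondrocyte-like cells in Control and 38.7% and 37.2% in Fracture, low cells 81.7% and 79.6% and 41.5% and 42.9%. Few cells lay near the upper boundary, with 12 and 6 Control and 91 and 118 Fracture cells from 40 to 50, and 10 and 4 Control and 86 and 98 Fracture cells from 50 to 60. In Fracture the lower boundary lies within the range that Col10a1 took in erythroid-like cells, where free RNA and mixed cells were not told apart. Erythroid-like cells held a median of 3.86 and 3.12 Col10a1 UMIs per 10000 there (0 and 0 in Control), 31.1% and 28.5% of them reached 5, and 0.971% and 1.78% reached 50. Only 2.40% and 2.71% of Fracture chondrocyte-like cells had no Col10a1 UMI, against 55.9% and 62.2% in Control.

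Between Col10a1-high and the remaining chondrocyte-like cells, Ihh and Pth1r were higher in high cells and Pthlh, Ptch1, Gli1, Gli2 and Hhip were lower, 7 of 9 members, where 41.1% of all 15223 genes tested passed (edgeR quasi-likelihood test over the preparations, Benjamini-Hochberg adjusted over all genes). All 7 calls held under every alternative run. Ihh stood at 267 and 366 CPM in high cells of Control against 42.1 and 49.4 CPM in the remaining cells, and at 492 and 470.5 CPM against 97.2 and 92.5 CPM in Fracture. High cells held more in 4 of 4 preparations (log2 fold change 2.74 ± 0.14 SE, 6.70-fold, adjusted p = 4.00e-05). Pth1r stood at 4422 and 4549 CPM in high cells of Control against 2033 and 2148 CPM, and at 3902 and 3711 CPM against 2058 and 1944 CPM in Fracture (1.21 ± 0.09, 2.31-fold, adjusted p = 0.00016 by edgeR). Thus the PTHrP receptor and the ligand Ihh were both higher in Col10a1-high than in the remaining cells.

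Hhip went the other way by the widest margin. It stood at 2.52 and 2.15 CPM in high cells against 128 and 104 CPM in the remaining cells of Control, and at 1.30 and 0.525 CPM against 13.1 and 12.2 CPM in Fracture (-4.29 ± 0.30 on the log2 scale, 19.5-fold lower, adjusted p = 0.000125 by edgeR). Gli1 stood at 0.971 and 0.429 CPM in high cells of Control and 1.47 and 1.35 CPM in high cells of Fracture, and was 10.0-fold lower there than in the remaining cells (-3.33 ± 0.15, adjusted p = 3.09e-05 by edgeR). Ptch1, at 9.32 and 3.43 CPM in high cells of Control and 10.5 and 8.93 CPM in those of Fracture, was lower by a smaller margin (-1.51 ± 0.20, adjusted p = 0.00132 by edgeR). Pthlh had 12 and 2 UMIs in all high cells of Control and 11 and 8 in those of Fracture (-3.50 ± 0.18, adjusted p = 4.90e-05 by edgeR). Gli2 had 3 and 1 UMIs in high cells of Control and 90 and 81 in those of Fracture (-1.73 ± 0.32, adjusted p = 0.00575 by edgeR). The edgeR differences of Smo (-0.29, adjusted p = 0.112) and Gli3 (-0.25, adjusted p = 0.0966) did not pass.

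Over 7 bins of Col10a1 the level of Ihh was highest in the top bin, at least 200 UMIs per 10000, in 4 of 4 preparations, at 289.7 and 452 CPM in Control and 561 and 523 CPM in Fracture. Cells with no Col10a1 UMI held 27.3 and 30.6 CPM in Control and 75.8 and 49.2 CPM in Fracture. The Control bins from 5 to 200 held only 12 to 58 cells each, and their order is not read. Pth1r in Fracture was highest below the top bin, at 50 to 100 in preparation 1 (4060 CPM) and at 100 to 200 in preparation 2 (3973 CPM). Hhip ran from 138 and 109.7 CPM at 0 Col10a1 to 2.99 and 0.639 CPM in the top bin in Control, and from 21.3 and 29.1 CPM to 1.22 and 0.50 CPM in Fracture. Gli1 ran from 16.6 and 16.6 CPM to 1.19 and 0 CPM in Control and from 18.6 and 19.6 CPM to 1.00 and 0.847 CPM in Fracture. Ptch1 ran from 34.7 and 41.3 CPM to 9.86 and 2.56 CPM in Control and from 41.9 and 36.4 CPM to 9.63 and 8.08 CPM in Fracture. Cells without a Col10a1 UMI were 1152 and 418 in Control and 163 and 193 in Fracture, where 5.34% and 4.98% of erythroid-like cells had none either (74.1% and 83.1% in Control), so this bin need not hold like cells in the groups and its levels are not compared between them.

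**Figure D3:**
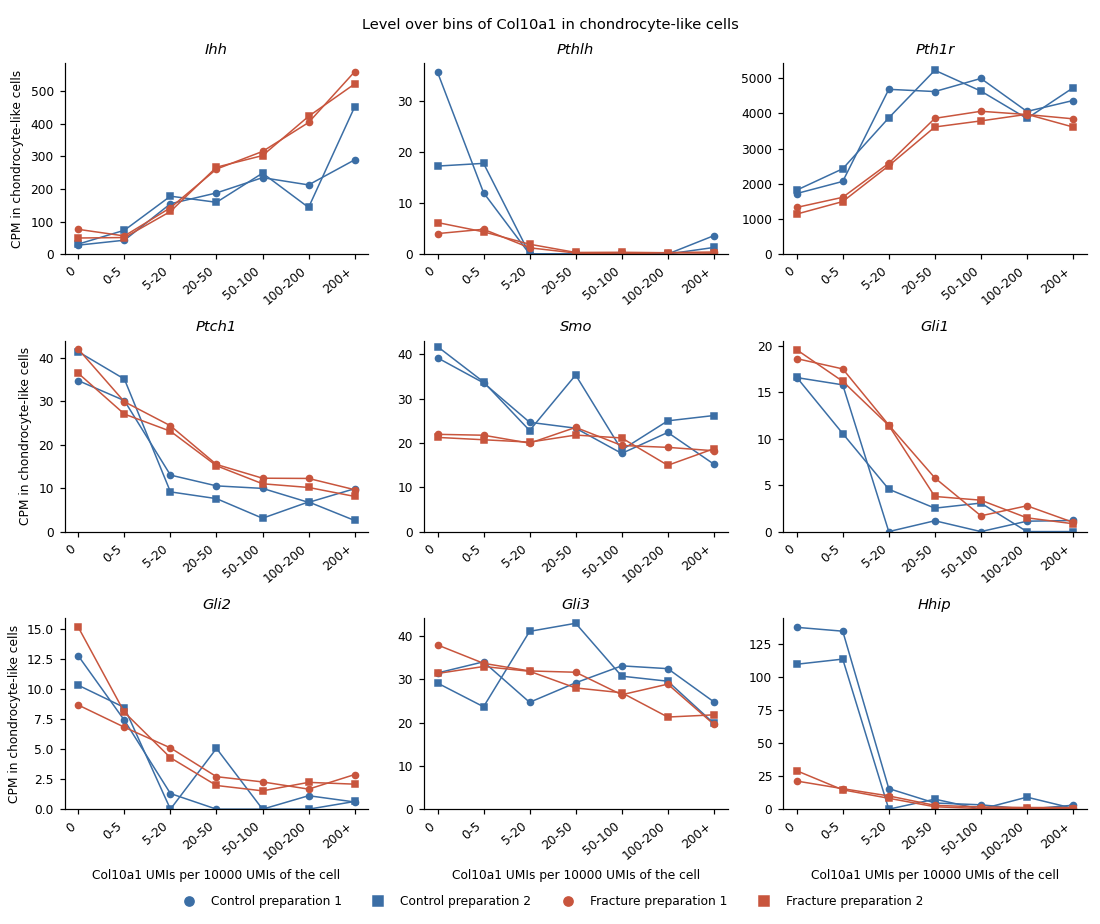
Level of each member (CPM) in chondrocyte-like cells over bins of Col10a1 UMIs per 10000, 1 line for each preparation. Ihh is highest in the top bin in all 4 preparations (289.7 to 561 CPM), while Gli1 and Ptch1 are highest in the cells with no Col10a1 UMI in all 4 and Hhip in 3 of 4.

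Mid cells were set against high cells to see in which of them Ihh was higher. In Fracture 31.1% and 28.5% of erythroid-like cells reached the lower bound of the mid range. Mid cells there need not be of an intermediate stage. The order in which Ihh and Col10a1 rise can therefore not be read from this comparison. Ihh stood at 172 and 166 CPM in mid cells of Control and 177 and 175 CPM in those of Fracture, below the high cells of the same preparation in 4 of 4 (-1.30 ± 0.13 on the log2 scale, adjusted p = 0.000247 by edgeR). Of the 8 members tested, 7 were called (31.2% of all genes tested), with Gli1 (2.58 ± 0.20, adjusted p = 9.21e-05), Hhip (2.7 ± 0.25, adjusted p = 0.000197) and Ptch1 (0.99 ± 0.11, adjusted p = 0.000398) higher in mid cells by edgeR. Gli2 (0.73 ± 0.18) and Gli3 (0.35 ± 0.10) were also higher in mid cells and Pth1r (-0.27 ± 0.08) lower, Smo did not pass (adjusted p = 0.216 by edgeR), and Pthlh was not tested. The Control preparations held few mid cells (5.29% and 4.91% of their chondrocyte-like cells). Those mid cells held few Gli1 UMIs, given below with the fits in mid cells. For Gli1 the order of mid and high cells is therefore not read in Control. Without either Fracture preparation only 6 members could be tested and 2 were called, the calls of Ptch1, Gli3 and Pth1r being lost, and with DESeq2 the calls of Gli2, Gli3 and Pth1r were lost.

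The difference between high and remaining cells itself differed between the groups for 6 of 9 members (12.0% of all genes tested), by a test of the interaction. For Ihh the ratio of high to remaining cells was 6.34 and 7.41 in Control and 5.07 and 5.09 in Fracture (-0.56 ± 0.08, adjusted p = 0.000179 by edgeR). For Hhip the ratio of remaining to high cells was 50.8 and 48.5 in Control and 10.1 and 23.3 in Fracture (1.67 ± 0.43, adjusted p = 0.0144 by edgeR), and the call was lost without Control preparation 1, Fracture preparation 1 or the cells of highest doublet scores. Gli2 (2.55 ± 0.58) rested on 3 and 1 UMIs in Control high cells, and its call was lost without Control preparation 1. The differences of Pth1r (-0.32 ± 0.08), Smo (0.59 ± 0.14) and Gli3 (-0.45 ± 0.12) were smaller, and each call was lost without either Fracture preparation, those of Smo and Gli3 also without Control preparation 1 and with DESeq2. The call of Pth1r was lost too with a Col10a1 threshold of 20 and without integration, and that of Gli3 with a threshold of 100. When the preparation was not kept as a block, 1 of the 6 calls was made, that of Gli2, and that of Ihh was lost.

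Cells with and without an Ihh UMI were then compared within the chondrocyte-like class, after every cell had been thinned to 3000 UMIs. Ihh was found in 215 of 1922 and 89 of 630 cells in Control, and in 2229 of 6797 and 2243 of 7121 cells in Fracture. Pthlh was found in none of the Ihh-positive cells, which at these numbers allows a share of up to 1.4% and 3.37% in Control and 0.135% and 0.134% in Fracture. It was found in 3.87% and 3.70% of the Ihh-negative cells of Control and 0.788% and 0.779% of those of Fracture. Hhip was found in 1.86% and 1.12% of Ihh-positive against 26.2% and 20.1% of Ihh-negative cells in Control, and in 0.179% and 0.267% against 4.12% and 3.18% in Fracture. Ptch1 was found in 2.33% and 2.25% of Ihh-positive against 9.55% and 10.2% of Ihh-negative cells in Control and in 3.10% and 2.63% against 7.33% and 7.11% in Fracture. Pth1r was found in 100% and 100% of Ihh-positive cells in Control and 98.8% and 99.3% in Fracture, against 87.4% to 88.0% of Ihh-negative cells. Erythroid-like cells, which should lack it, held at the same depth a Pth1r UMI in 5.90% and 2.78% of cells in Control and 28.2% and 17.4% in Fracture. They held a Ptch1 UMI in 0.984% and 1.56% in Control and 0.971% and 0.712% in Fracture, and a Hhip UMI in 0 and 0.0679% in Control and 0.971% and 0 in Fracture, where the counts of 0 allow up to 0.984% in Control preparation 1 and 1.07% in Fracture preparation 2, so the share of Hhip in Ihh-positive Fracture cells could not be set apart from background. Gli1-positive cells, 83 and 27 in Control and 202 and 193 in Fracture, held Ptch1 in 15.7% and 22.2% of Control and 13.9% and 15.0% of Fracture cells, above the Gli1-negative cells (8.43% and 8.46%, 5.70% and 5.44%) in 4 of 4 preparations. Cells are not replicates, so these shares are given without a test.

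**Figure D4:**
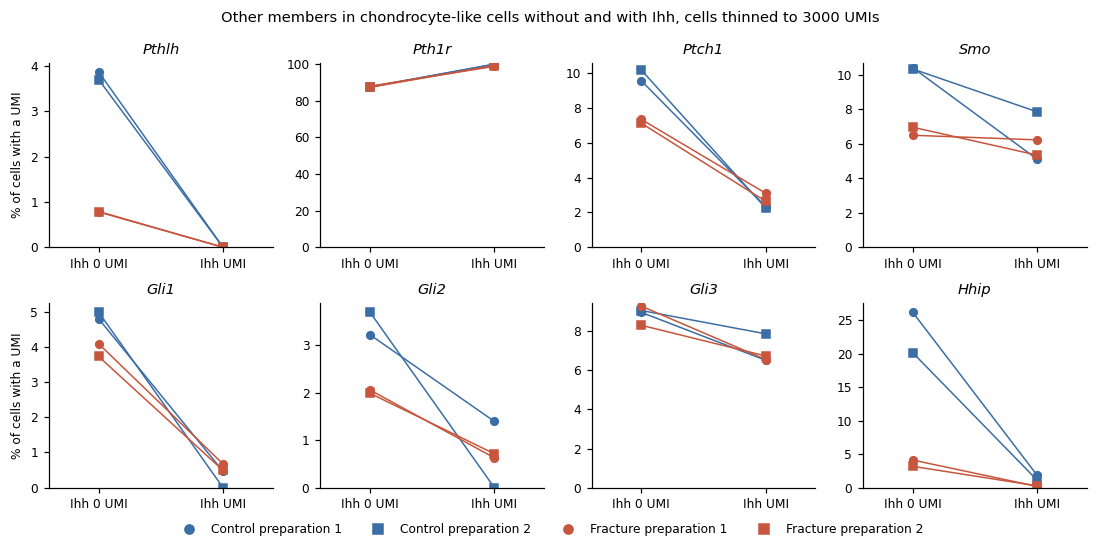
Percent of chondrocyte-like cells with a UMI of each other member among cells without and with an Ihh UMI, after thinning to 3000 UMIs, 1 line for each preparation. Hhip drops from 26.2% and 20.1% to 1.86% and 1.12% in Control, and Pth1r is near 100% in the Ihh-positive cells of all 4 preparations.

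Fracture against Control within the chondrocyte-like cells gave 7 of 9 members called, 1 higher and 6 lower, where 44.9% of all 17036 genes tested were called, 23.5% higher and 21.4% lower. Ihh rose 2.93-fold (log2 fold change 1.55 ± 0.15 SE, adjusted p = 0.000436 by edgeR, n = 2 preparations per group). Hhip fell from 107 and 84.4 CPM to 8.34 and 7.55 CPM, 10.9-fold (-3.45 ± 0.12, adjusted p = 1.4e-05 by edgeR). Pthlh fell 7.40-fold (-2.89 ± 0.20, adjusted p = 0.000149 by edgeR). The falls of Smo (-0.63 ± 0.07, adjusted p = 0.00101), Gli2 (-0.63 ± 0.11, adjusted p = 0.00439) and Ptch1 (-0.42 ± 0.09, adjusted p = 0.00829) were smaller by edgeR. Gli2 stood at 8.44 and 7.68 CPM in Control and 4.62 and 4.86 CPM in Fracture. Its call was lost without Fracture preparation 1 or 2, and that of Ptch1 without Fracture preparation 2. The fall of Gli1 from 12.8 and 11.6 CPM to 9.49 and 8.86 CPM just passed (-0.28 ± 0.09, adjusted p = 0.0404 by edgeR) and was lost without Control preparation 1, without either Fracture preparation, with DESeq2, with no filter and with a replicate block, 6 of 13 alternatives. Pth1r (0.26, adjusted p = 0.051) and Gli3 (0.09, adjusted p = 0.321) did not pass by edgeR. Pth1r passed in 5 of 13 alternatives, with DESeq2, RLE normalisation, no filter, a replicate block and without Control preparation 2.

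The share of high cells moved with these levels, at 13% and 15.5% in Control and 38.7% and 37.2% in Fracture, and its part in them was not tested beyond the weighting given here. In Fracture the lower boundary of the mid cells lies within the Col10a1 range of erythroid-like cells. Low and mid cells therefore need not be the same cells in the groups. When every preparation was weighted to the same shares of low, mid and high cells (58.1%, 12.7% and 29.2% of UMIs), the Fracture to Control ratio of Ihh was 1.43 in place of 2.62, and the Control to Fracture ratio of Hhip was 7.22 in place of 12.0 and that of Pthlh 4.58 in place of 7.95. For Smo the Control to Fracture ratio was 1.56 in place of 1.73, for Ptch1 1.09 in place of 1.5 and for Gli2 1.14 in place of 1.70. The direction turned for Gli1, whose Fracture to Control ratio was 1.20 at the fixed mix against 0.751 as measured, and for Pth1r, 0.788 against 1.08. By these plain CPM ratios it also turned for Gli3, 1.02 against 0.970, both near 1, though the edgeR value of Gli3 as measured was positive.

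Fits within each range of Col10a1 gave the same picture for Hhip and Pthlh in low cells. In those cells Hhip stood at 137 and 111 CPM in Control and 15.8 and 15.3 CPM in Fracture (-2.85 ± 0.11, adjusted p = 1.77e-05 by edgeR). Pthlh stood at 26.8 and 17.3 CPM and 4.80 and 4.42 CPM (-2.15 ± 0.19, adjusted p = 0.000391 by edgeR). Smo (-0.70 ± 0.07, adjusted p = 0.000771) fell as well by edgeR, while Ihh (0.69 ± 0.12, adjusted p = 0.00508) and Gli3 (0.28 ± 0.08, adjusted p = 0.0358) rose, so 5 of 9 members were called where 36.3% of all genes were. Pth1r, Ptch1 and Gli2 did not pass in low cells. Gli1 in low cells stood at 16.3 and 15.1 CPM in Control and 17.6 and 16.3 CPM in Fracture and did not pass. In high cells 3 of 9 were called (26.7% of all genes), Ihh (0.55 ± 0.14, adjusted p = 0.0235), Gli2 (2.01 ± 0.56, adjusted p = 0.0283) and Pthlh (-2.91 ± 0.60, adjusted p = 0.00835) by edgeR. Each of these 3 calls was lost without Fracture preparation 1 or 2, and the calls of Gli2 and Pthlh also without Control preparation 1, that of Gli2 with DESeq2 too. Pth1r, Ptch1, Smo, Gli1 and Gli3 did not pass in high cells. Hhip in high cells, at 2.52 and 2.15 CPM in Control and 1.30 and 0.525 CPM in Fracture, did not pass (-1.48, adjusted p = 0.103 by edgeR). It passed with no filter and without the cells of highest doublet scores, and Pth1r with DESeq2 and without those cells. Ptch1 and Gli3 kept their result in 12 of 13 alternatives each. In mid cells 3 members were called (15.2% of all genes): Gli1 (2.79 ± 0.60, adjusted p = 0.00632) and Ptch1 (0.98 ± 0.26, adjusted p = 0.0214) were higher in Fracture and Pth1r (-0.68 ± 0.13, adjusted p = 0.00242) was lower by edgeR. The 109 and 33 mid cells of Control held 1 and 2 Gli1 UMIs and 19 and 5 Ptch1 UMIs, against 172 and 180 and 381 and 413 in the 1348 and 1420 of Fracture. Ihh, Smo, Gli2, Gli3 and Hhip did not pass in mid cells, and Pthlh was not tested.

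The share of chondrocyte-like cells with an Ihh UMI, after thinning to 1000 UMIs per cell, was 5.65% and 6.86% in Control (6.25% ± 0.85 SD, n = 2) and 17.5% and 16.4% in Fracture (16.9% ± 0.811 SD, n = 2). The difference of 10.7 percentage points had an exact two-sided permutation p of 0.33, the smallest that 2 against 2 preparations can give. Without thinning the shares were 23.1% and 28.1% and 50.5% and 49.8%. Erythroid-like cells, read as background, held an Ihh UMI in 0 of 611 and 0.0564% of cells in Control and 0.971% and 0.712% in Fracture after thinning. The 0 allows up to 0.491%. Median depths were 14295 and 18030.5 UMIs in chondrocyte-like and 2893 and 8415.5 in erythroid-like cells of Control, and 12139 and 13028 against 7091 and 7124 in Fracture. Within high cells the thinned shares were 25.7% and 26.0% in Control and 34.6% and 33.5% in Fracture. Hhip was found in 10.6% and 6.56% of thinned chondrocyte-like cells of Control and 0.985% and 0.842% of Fracture, and in no thinned erythroid-like cell, which allows up to 0.491% and 0.169% in Control and 1.46% and 1.07% in Fracture. In the whole blood class of Fracture, 319 and 394 cells, Hhip was also at 0, which allows up to 0.940% and 0.761%. Thinned to 3000 UMIs, Hhip was found in 2.82% and 2.26% of the Fracture chondrocyte-like cells, above the 0.971% and the limit of 1.07% in erythroid-like cells.

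In the other classes the members did not all move as in cartilage cells. In the 6 classes 30 of the 48 member tests passed, where 23.8% (fibroblast-like) to 56.7% (BMSC-like) of all genes tested passed by class. Fibroblast-like cells gave 7 of 9 called (23.8% of all genes tested). Hhip fell there from 131 and 60.5 CPM to 3.99 and 3.61 CPM (-4.67 ± 0.41, 25.5-fold, adjusted p = 0.000989 by edgeR). Pthlh fell from 183 and 257 CPM to 51.9 and 55.5 CPM (-1.95 ± 0.16, 3.85-fold, adjusted p = 0.000917 by edgeR). Gli1 (-1.49 ± 0.28, adjusted p = 0.0128) and Gli2 (-1.77 ± 0.27, adjusted p = 0.00663) fell by edgeR, the call of Gli1 being lost without either Fracture preparation, and Smo fell with a call that was lost with DESeq2, without Control preparation 1, without either Fracture preparation and without the cells of highest doublet scores. Pth1r rose from 99.6 and 70.8 CPM to 223 and 217 CPM (1.4 ± 0.18, adjusted p = 0.00389 by edgeR), in cells that also held the cartilage genes at the percents given for Ihh. Ptch1 (1.11 ± 0.41, adjusted p = 0.0938) and Gli3 (0.63 ± 0.19, adjusted p = 0.0587) did not pass by edgeR, and Gli3 passed in 6 of 13 alternatives. The class itself was not the same in the groups: its summed fibroblast markers stood at 21033 and 22669 CPM in Control and 7826 and 8344 CPM in Fracture. Of these 8 genes 3 were higher and 4 lower in Fracture without overlap. Its summed cartilage markers stood at 3951 and 3536 CPM and 13001 and 11749 CPM. The part of this shift in the member values was not tested.

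BMSC-like cells gave 6 of 9 members called (56.7% of all genes tested). Pthlh rose from 0.835 and 0.552 CPM to 2.55 and 4.26 CPM (2.46 ± 0.43, adjusted p = 0.00284 by edgeR), on 13 and 7 UMIs in Control and 27 and 51 in Fracture. Erythroid-like cells of Fracture held no Pthlh UMI, which allows up to 1.57 and 1.10 CPM, and the Fracture chondrocyte-like cells held 2.20 and 2.13 CPM. Gli1 rose from 5.46 and 2.53 CPM to 9.82 and 12.95 CPM (1.68 ± 0.34, adjusted p = 0.00557 by edgeR). Smo fell from 42.8 and 45.1 CPM to 28.6 and 27.7 CPM (-0.45 ± 0.09, adjusted p = 0.00522 by edgeR), a call lost without Fracture preparation 2. Gli3 and Pth1r rose by 0.38 and 0.45 on the log2 scale, with calls lost without either Fracture preparation, that of Gli3 also without integration. Erythroid-like cells held Pth1r at 1.57% and 0.415% of its chondrocyte-like level in Control and 7.96% and 5.60% in Fracture. The part of such background in the rise of Pth1r was not tested. Ptch1 (0.26 ± 0.18, adjusted p = 0.25) and Gli2 (0.40 ± 0.17, adjusted p = 0.084) did not pass by edgeR, though both passed without integration and Gli2 without Control preparation 1. Hhip, at 8.16 and 6.71 CPM in Control and 6.33 and 7.60 CPM in Fracture, did not pass. All 7 BMSC markers were lower in the BMSC-like cells of Fracture, with a summed level of 26932 and 28852 CPM in Control and 1967 and 2277 CPM in Fracture. The summed fibroblast markers in these cells stood at 123 and 35.4 CPM in Control and 989 and 1160.2 CPM in Fracture (7 of 8 genes higher with no overlap), and the summed cartilage markers at 752 and 357 CPM and 3109 and 3166 CPM (9 of 9 genes). How many of all genes were higher with no overlap was not counted. Fibroblast-like cells are the class with the most Pthlh, 51.9 and 55.5 CPM in Fracture. The part of these changes in the member values, that of Pthlh among them, was not tested.

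The members called were not the same in the dpMSC-like and mpMSC-like subclasses, and the difference between them was not tested. These subclasses came from clustering BMSC-, osteoblast- and fibroblast-like cells together, so they are not strictly parts of the BMSC-like class. In Fracture 1096 and 1178 cells were BMSC-like, more than both subclasses held, so part of that class lay in neither. In dpMSC-like cells 7 of 9 were called (48.7% of all genes tested). Gli1 there had 4 and 1 UMIs in Control and 11 and 16 in Fracture (0.486 and 0.122 CPM, 5.21 and 5.86 CPM, adjusted p = 0.000174 by edgeR), and Pthlh had 2 and 0 UMIs and 7 and 25 UMIs (adjusted p = 0.000238 by edgeR). Hhip fell from 7.04 and 6.72 CPM to 0.474 and 1.46 CPM (-2.46 ± 0.52, adjusted p = 0.00296 by edgeR), on 1 and 4 UMIs in Fracture. Ptch1 (-0.92 ± 0.33, adjusted p = 0.0412) and Smo (-0.38 ± 0.14, adjusted p = 0.0487) just passed by edgeR, with calls that held in 3 and 1 of 8 alternatives. That of Ptch1 was lost with DESeq2, a replicate block and without Control preparation 1 or either Fracture preparation, and that of Smo with DESeq2, RLE normalisation, no filter and without any 1 preparation. Ihh passed, on 3 and 1 UMIs in Control and 12 and 31 in Fracture, and Gli2 and Gli3 did not. Pth1r rose from 207 and 182 CPM to 338 and 324 CPM (1.02 ± 0.12, adjusted p = 6.25e-05 by edgeR). Erythroid-like cells, read as background, also held more of it in Fracture, 7.96% and 5.60% of the chondrocyte-like level against 1.57% and 0.415% in Control. The part of background in this rise was not tested. In mpMSC-like cells Ihh and Gli3 passed of 8 tested (36.5% of all genes), the call of Gli3 (0.52 ± 0.13, adjusted p = 0.00769 by edgeR) being lost with DESeq2 and without Fracture preparation 1. Pth1r, Ptch1, Smo, Gli1, Gli2 and Hhip did not pass and Pthlh was not tested. Gli2 (0.53 ± 0.22, adjusted p = 0.0816 by edgeR) passed with a replicate block and without Control preparation 1 or Fracture preparation 2, Hhip with no filter and without Control preparation 2, and Gli1 without Control preparation 1. Gli1 stood at 10.6 and 7.68 CPM in Control and 9.69 and 14.3 CPM in Fracture, with overlap. These subclasses held 1700 and 1224 dpMSC-like cells in Control and 222 and 292 in Fracture, and 870 and 494 against 516 and 530 mpMSC-like cells.

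In osteoblast-like cells 4 of 8 members tested were called (26.5% of all genes), and all 3 Gli factors rose. Gli3 rose from 11.4 and 10.7 CPM to 24.8 and 23.6 CPM (1.06 ± 0.10, adjusted p = 9.13e-05 by edgeR). Gli2 rose from 5.74 and 6.23 CPM to 10.2 and 10.6 CPM (0.73 ± 0.13, adjusted p = 0.00344 by edgeR). Gli1 rose from 1.04 and 1.55 CPM to 3.97 and 3.10 CPM (1.4 ± 0.29, adjusted p = 0.00723 by edgeR), a call lost without Fracture preparation 1. Pth1r (618 and 715 CPM, 819 and 754 CPM), Ptch1, Smo and Hhip did not pass, and Pthlh was not tested. Without Control preparation 2 Pth1r, Ptch1 and Hhip passed, and Hhip also with no filter and without integration. In the same cells the summed osteoblast markers stood at 107697 and 125747 CPM in Control and 46893 and 60328 CPM in Fracture. Of these 8 genes 3 were higher and 3 lower in Fracture without overlap. Of the cartilage markers 7 of 9 were higher and 2 lower, and of the fibroblast markers 6 of 8 were higher, with no overlap. How many of all genes did so was not counted. The summed cartilage markers stood at 5962 and 5567 CPM and 4653 and 4561 CPM. The summed fibroblast markers stood at 18.3 and 8.08 CPM and 45.0 and 49.1 CPM. The part of these markers in the member values was not tested. Endothelial-like cells (43.4% of all genes called) and smooth muscle-like cells (33.7%) gave calls for the same members, Ihh, Pth1r and Gli3, all higher in Fracture, in 9 and 4 members tested. In smooth muscle-like cells the calls of Pth1r (1.17 ± 0.24, adjusted p = 0.00538) and Gli3 (1.41 ± 0.28, adjusted p = 0.00445 by edgeR) were lost without either Fracture preparation, that of Pth1r also without integration and that of Gli3 with DESeq2. The summed smooth muscle markers of these cells stood at 37850 and 38015 CPM in Control and 19239 and 20170 CPM in Fracture, their cartilage markers at 1692 and 1245 CPM and 11034 and 8724 CPM, and their fibroblast markers at 733 and 753 CPM and 1795 and 2278 CPM, whose part in the rises was not tested. Smo did not pass there, and Pthlh, Ptch1, Gli1, Gli2 and Hhip were not tested. In endothelial-like cells Pthlh, Smo and Hhip did not pass, and neither did Ptch1 (0.68 ± 0.25, adjusted p = 0.0654), Gli1 (1.96 ± 0.71, adjusted p = 0.0626) and Gli2 (1.69 ± 0.58, adjusted p = 0.0531) by edgeR. The latter 3 passed with no filter, with a replicate block and without Control preparation 1, where Hhip passed too, Gli1 also with at least 3000 UMIs per cell and Gli2 without called doublets. Pth1r in endothelial-like cells stood at 73.6 and 50.5 CPM in Control and 464 and 405 CPM in Fracture, in cells whose summed cartilage markers stood at 2324 and 1062 CPM and 15032 and 14579 CPM. Gli3 in erythroid-like cells of Fracture stood at 6.81 and 5.52 CPM, against 0.797 and 0.249 CPM in Control.

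The Fracture effect itself differed from that in chondrocyte-like cells, by a test of the interaction in edgeR, for 7 of 9 members in fibroblast-like cells (17.1% of all genes), 7 of 9 in BMSC-like cells (45.8%) and 8 of 9 in osteoblast-like cells (27.5%). This comparison was added after the data were seen.

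**Figure D5:**
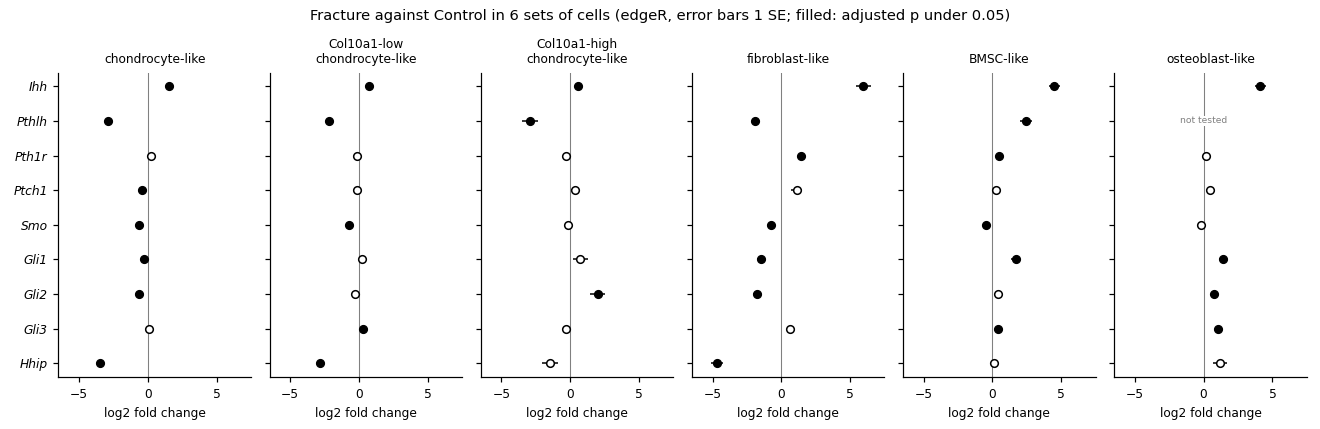
Fracture against Control (log2 fold change, edgeR, error bars 1 SE, filled points adjusted p under 0.05) for each member in 6 sets of cells. Hhip and Pthlh lie far to the left in chondrocyte-like and fibroblast-like cells, while Ihh lies to the right in all sets.

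Of the 44 other pathway genes listed, 43 were found. In chondrocyte-like cells 41 were tested against Control and 20 rose and 9 fell (44.9% of all genes called), with a median log2 change of 0.20 against -0.0048 over all genes. By size of the change the 12 largest were Gpc3, Dhh, Gpr161, Gsk3b, Scube3 and Scube1, which rose, and Foxf2, Nkx3-2, Gas1, Ccnd1, Hdac4 and Hhat, which fell. Gsk3b, a kinase that marks Gli proteins for processing, rose from 152 and 182 CPM to 416 and 412 CPM (1.46 ± 0.10, adjusted p = 0.000138 by edgeR). Foxf2, a forkhead factor and Hedgehog target, fell from 10.2 and 8.59 CPM to 1.86 and 2.28 CPM (-2.05 ± 0.16, adjusted p = 0.000198 by edgeR). Gas1, a coreceptor that aids ligand binding, fell from 35.0 and 23.9 CPM to 10.3 and 11.1 CPM (-1.35 ± 0.16, adjusted p = 0.00103 by edgeR). Hdac4, the deacetylase that restrains Mef2 and Runx2 downstream of PTHrP, fell from 41.3 and 39.1 CPM to 16.7 and 18.8 CPM (-1.03 ± 0.08, adjusted p = 0.00023 by edgeR). Gpc3, Dhh and Gpr161 each stood under 4 CPM in all preparations. By role, 5 of 9 release genes tested rose and 2 fell, 1 of 4 coreceptors and receptors rose and 2 fell, 7 of 13 cilium genes and transducers rose and 1 fell, 6 of 10 genes of PTHrP signalling rose and 2 fell, and 1 of 5 Hedgehog targets rose and 2 fell.

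Between Col10a1-high and remaining cells, 40 of the 44 were tested, of which 16 were higher in high cells and 13 lower (41.1% of all genes called), with a median of 0.06 against -0.01 over all genes. Scube2 and Scube3, secreted proteins that carry the lipid-modified ligand away from the cell that makes it, went in opposite directions. Scube2 stood at 2.72 and 1.72 CPM in high cells of Control against 25.9 and 21.9 CPM in the remaining cells, and at 1.86 and 1.65 CPM against 15.2 and 16.0 CPM in Fracture (-3.05 ± 0.11, adjusted p = 1.92e-05 by edgeR). Scube3 stood at 16.7 and 42.9 CPM against 3.46 and 7.67 CPM in Control and 39.3 and 40.9 CPM against 7.41 and 7.66 CPM in Fracture (2.57 ± 0.07, adjusted p = 1.03e-05 by edgeR). Disp1, which releases the ligand from the membrane, stood at 57.7 and 57.5 CPM against 12.3 and 13 CPM in Control and 33.3 and 35.8 CPM against 14.9 and 15.6 CPM in Fracture (1.79 ± 0.23, adjusted p = 0.00137 by edgeR). Mef2c, a driver of hypertrophy, was higher in high cells (1.72 ± 0.16, adjusted p = 0.000393 by edgeR). Gsk3b and Mef2d were higher as well, and Nkx3-2, Foxf2, Dhh, Gas1, Ccnd1 and Boc lower. Of the 4 receptors and coreceptors, Boc, Cdon and Gas1 were lower in high cells. For scale, 8 of 9 hypertrophy genes (Col10a1, which made the split, among them) were higher in high cells and both cycling genes lower. Of 7 genes listed as resting and articular, only Matn1 was higher, and Sfrp5, Grem1 and Matn3 were lower. Against Control in the whole class the counts were 8 of 9 hypertrophy genes higher, 2 of 2 cycling genes lower, and 1 higher and 3 lower of 7 resting and articular genes.

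The genes most like each member were sought over 32 points, 8 sets of cells (chondrocyte-like cells as low, mid and high, and 5 other classes) in 4 preparations, by Pearson correlation of log2(CPM + 1) among 10577 genes. The points share libraries and may share free RNA, so the values are a description. For Ihh the nearest were Matn1 (r = 0.97), Nim1 (0.95) and Ctsw (0.94), for Pthlh they were Ezr (0.89), Lefty1 (0.87) and Gm17455 (0.87), and for Pth1r they were Wnt5b (0.95), Fam104a (0.94) and Shisa4 (0.94). The genes nearest to Ptch1 were Fads1 (0.91), Lef1 (0.89) and Emilin1 (0.89). For Gli1 they were Cdc123 (0.82), Slc39a6 (0.80) and Shank1 (0.80), and for Hhip they were Myoc (0.81), Vit (0.80) and Srebf1 (0.77). Among members the highest values were those of Ihh with Pth1r (0.80), Gli1 with Gli2 (0.77) and Gli1 with Hhip (0.72), and the lowest were those of Pthlh with Pth1r (-0.50) and Ihh with Gli2 (-0.44).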

How the data were processed

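Droplet single-cell RNA-seq (10x Genomics Chromium) was made of 8 libraries, 4 per group. The authors deposited unnormalised counts of unique molecules (UMIs) for each gene in each barcode. The submitters' processing notes name bcl2fastq 2.19.1.403, UMI-tools 1.0.0, STAR 2.7.3a, featureCounts 1.6.4 and mm10, while the study's methods name STARsolo and EmptyDrops; which made these tables, and how barcodes were chosen, is not settled, so barcode selection may differ between the groups. Genes found in at least 3 cells and cells of 500 to 6000 genes with at most 25% mitochondrial UMIs were kept. Of 26357 such genes, those with symbols beginning with U were left out (26075 remained), since Control preparation 1 held no UMI for any of them against 1.26% to 1.46% of UMIs elsewhere.

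Libraries were integrated in Seurat 5.3.0 (R 4.3.3; canonical correlation, 30 dimensions, 1941 of 2000 variable genes after members, pathway and cell cycle genes were taken out) and clustered on 12 components at a resolution of 0.1, BMSC-, osteoblast- and fibroblast-like cells again on 13 components at 0.08. Clusters were named from marker lists. Doublets were scored with scrublet in scanpy 1.11.5 (745 cells called, 1.64%, 1 to 234 per library) and kept in the main analysis. The replicate was the preparation, the sum of its libraries, which differed beyond sampling noise. Sums per class and preparation of at least 20 cells were tested with edgeR 4.0.16 (quasi-likelihood test, TMM, filterByExpr) with Benjamini-Hochberg adjustment over all genes and calls at an adjusted p under 0.05. Comparisons between kinds of cell kept the preparation as a block. CPM are plain counts scaled to the UMI total of the class in the preparation. Errors are SD over 2 preparations or SE of the fit, and limits for shares of 0 (3 counts) cover counting error only. Scripts were tested on simulated counts. The members and lists were chosen with earlier results of these data known. All members are named in every class, as passed, not passed or not tested. Of the pathway list the 12 called genes with the largest change are named, and the 3 genes most like each of 6 members by correlation, among genes with a mean of at least 5 CPM.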

Additional observations from a re-analysis of the deposited data

Results flagged for a closer look

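For 6 members the difference between Col10a1-high and remaining chondrocyte-like cells differed between Fracture and Control by the interaction term (edgeR, 12.0% of all genes called). The log2 differences, Fracture minus Control, were -0.56 for Ihh, -0.32 for Pth1r, 0.59 for Smo, 2.55 for Gli2, -0.45 for Gli3 and 1.67 for Hhip. High cells of Control held 3 and 1 Gli2 UMIs and 13 and 5 Hhip UMIs.

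The Fracture effect also differed between classes, again by the interaction term, as a difference to the effect in chondrocyte-like cells. For fibroblast-like cells 7 of 9 members were called (17.1% of all genes): Ihh (4.53), Pthlh (1.07), Pth1r (1.24), Ptch1 (1.62), Gli1 (-1.12), Gli2 (-1.08) and Gli3 (0.61), while for Hhip the difference was -1.13 (adjusted p = 0.0561 by edgeR). The fall of Gli1 and Gli2 was thus larger in fibroblast-like than in chondrocyte-like cells, and that of Pthlh smaller. In chondrocyte-like cells the fall of Gli1 just passed and turned at the fixed mix (Fracture to Control ratio 1.20). Fibroblast-like cells of Control held 1 and 0 Ihh UMIs, so the fitted value of Ihh depends on the prior count and is no bound.

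For BMSC-like cells 7 of 9 members were called (45.8% of all genes): Ihh (2.96), Pthlh (5.34), Ptch1 (0.68), Gli1 (1.93), Gli2 (1.00), Gli3 (0.28) and Hhip (3.55). For osteoblast-like cells 8 of 9 were called (27.5% of all genes): Ihh (2.56), Pthlh (5.38), Ptch1 (0.94), Smo (0.45), Gli1 (1.73), Gli2 (1.39), Gli3 (0.98) and Hhip (4.76). All of these are positive, and Pthlh, Hhip, Gli1 and Gli2, which fell in chondrocyte-like cells, were not called lower in either class, although Hhip was called lower in the dpMSC-like subclass (-2.46). Osteoblast-like cells held 2 and 0 Pthlh UMIs in Control and 5 and 4 in Fracture, so that value depends on the prior count as well. The Ihh values rest on 7 and 2 UMIs of Control in BMSC-like and 8 and 2 in osteoblast-like cells, and in Fracture osteoblast-like cells Ihh stood at 1.39% and 1.53% of its chondrocyte-like level, where 5 cartilage genes stood at 1.47% to 2.45%. The lower BMSC markers of BMSC-like cells and the lower summed osteoblast markers of osteoblast-like cells in Fracture move with these values. Of the 8 osteoblast markers 3 were higher and 3 lower without overlap. The part of these marker levels was not tested.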

How the results depend on the processing

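The alternatives were RLE normalisation, no filter on low counts, DESeq2, each preparation left out, at least 3000 UMIs per cell, no integration, a resolution of 0.2, other Col10a1 thresholds (20, 100) and removal of called doublets, with removal of the 6% highest doublet scores, the fixed mix and the fits of low and mid cells added after seeing the data. Among 2277 values of 175 single-gene results, which leave out the fixed mix and the fits of low and mid cells, none turned direction where it or the main value passed the test. In 9 results that did not pass, 17 values had the other sign, those of members being Hhip in BMSC-like and endothelial-like cells, Smo in smooth muscle-like and Col10a1-high cells and Pthlh in the interaction with group; 2071 kept their side of the threshold, 155 lost a call and 51 gained one. Of the 48 member tests in 6 classes 30 passed, 28 to 35 under alternatives and 20 to 34 with 1 preparation left out. In the main fits of these classes 23.8% to 56.7% of all genes tested passed. Between Col10a1-high and remaining cells 7 passed, 7 to 8 under all alternatives. For the interaction of Col10a1-high with group, 6 passed, 1 with no replicate block, 4 with DESeq2, and 2 to 6 with 1 preparation left out (3 without Control preparation 1, 2 without Fracture preparation 1, 3 without Fracture preparation 2). Between mid and high cells 7 passed, 4 with DESeq2 and 2 to 8 with 1 preparation left out (2 of 6 tested without either Fracture preparation). Of the pathway list 29 passed in chondrocyte-like cells, 22 with DESeq2 and 17 to 30 with 1 preparation left out (19 and 17 without Fracture preparation 1 and 2). A lone preparation is then assumed to vary like those of the other group. The difference in the share of Ihh-positive cells was 10.7 percentage points, 24.5 without thinning, 19.5 when thinned to 3000 UMIs, and 10.1 to 11.3 with 1 preparation left out. The Ihh ratio of 2.62 was 1.43 at the fixed mix, which turned the direction of Gli1 and Pth1r. For Gli3 it turned only the plain CPM ratio, while the edgeR value of Gli3 was positive without the fixed mix. Except where fewer samples or another depth is the alternative itself, the cause was not tested. Same-numbered preparations of the groups correlated at 0.0215 to 0.211 over 6 classes, which with 2 pairs does not show pairing; with a replicate block 34 of the member tests and 27 pathway genes passed. The member calls lost with the block were those of Gli1 in chondrocyte-like and Ptch1 in dpMSC-like cells. The member calls gained were Pth1r in chondrocyte-like, Gli3 in fibroblast-like, Ptch1, Gli1 and Gli2 in endothelial-like and Gli2 in mpMSC-like cells.

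Over all genes, calls in chondrocyte-like cells were 7643, and 3354 and 3493 without Fracture preparation 1 and 2. In osteoblast-like, fibroblast-like and smooth muscle-like cells they were 3544, 2933 and 3509, and 2042, 1717 and 1757 with DESeq2, 1315, 1043 and 1510 without Fracture preparation 1, and 1490, 1009 and 851 without Fracture preparation 2. In endothelial-like cells they were 6104, and 2140 and 2560 without Fracture preparation 1 and 2. For mid against high cells they were 3985, 2301 with DESeq2, and 599 and 492 without Fracture preparation 1 and 2. For the interaction they were 1980 (817 higher, 1163 lower), 1131 with DESeq2 (327 higher, 804 lower), 895 with no replicate block, 1185 without Control preparation 1, and 900 and 895 without Fracture preparation 1 and 2. Between high and remaining cells they were 6257, and 3519 and 3418 without Fracture preparation 1 and 2. Depth limits the members with few UMIs (Gli2, Gli1 and Pthlh in Col10a1-high cells), and 2 preparations per group limit every test.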
